A study of Pimephales promelas with 139 samples.

Results

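Larval fathead minnows (Pimephales promelas) held in water with 5 ng/L ethinyl estradiol were compared with control larvae held without it. The comparison rests on 17 libraries at 5 ng/L and 29 control libraries, chosen by the concentration in the labels. The rest of the series, in the same 3 experiments, holds 28 libraries of larvae given 10 ng/L, 18 given 2.5 ng/L, 30 given 1.2 ng/L and 17 given 0.12 ng/L. Larvae of both groups entered static exposure 48 h after hatching and were taken 48 h later, at an age of 96 h, and each library holds the mRNA of a single whole larva. The 5 ng/L group has 5, 6 and 6 larvae in experiments 1, 2 and 3, and the control group has 10, 9 and 10. Strain, sex, parentage and the sharing of exposure vessels are not in the labels, so the p-values measure the spread between larvae only. The main test of 5 ng/L against control took this spread from every library of the series, the other concentrations included.

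Ethinyl estradiol is a synthetic estrogen that reaches rivers in treated sewage and that binds the nuclear estrogen receptors of fish. The bound receptors act as transcription factors, and the best known target in egg-laying vertebrates is vitellogenin, the yolk precursor made by the liver of mature females and released into the blood. Males and young fish carry the same genes and make the protein when exposed to estrogens, which is why it serves as an exposure marker. The deposited counts are listed by identifiers of the form FMt030408 that are paired with no gene name, and 0 of the 64593 genes in the reference gene table carried one, so no transcript is given a name or a role here. For the same reason the whole-larva label was not checked against tissue markers, and the transcripts' sequences are not shown. In whole larvae, more RNA per cell and more cells that make an RNA cannot be told apart.

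Total counts ran from 10.8 to 29.4 M per library at 5 ng/L (median 23.5 M) and from 11.7 to 30.6 M in controls (median 23.6 M), and 1 library of each group had under 0.5 times the series' median. Of 7 whole-library measures, none passed an adjusted p of 0.05 in a two-sided permutation test within experiments (n = 17 and 29). The smallest unadjusted p, 0.0625, belonged to the number of transcripts detected, 36506.2 ± 219 (SD) at 5 ng/L against 36594.6 ± 120 in controls. The first principal component, which holds 12.6% of the variance within experiments, averaged -10.9 ± 35.1 at 5 ng/L and 6.41 ± 31.3 in controls (permutation p = 0.108).

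At 5 ng/L, 4 transcripts rose and 1 fell, out of 35340 tested. The rises were those of FMt030408, FMt030407, FMt030406 and FMt019919, and the fall was that of FMt002788. A transcript was called when its p in the quasi-likelihood test of edgeR, adjusted over all tested transcripts by the Benjamini-Hochberg method, was under 0.05. The calls make up 0.0141% of the tested transcripts, with 0.0113% called higher and 0.00283% called lower. Levels are given as CPM, the count scaled to the library's total after TMM scaling, and changes as log2 differences of 5 ng/L minus control.

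**Figure D1:**
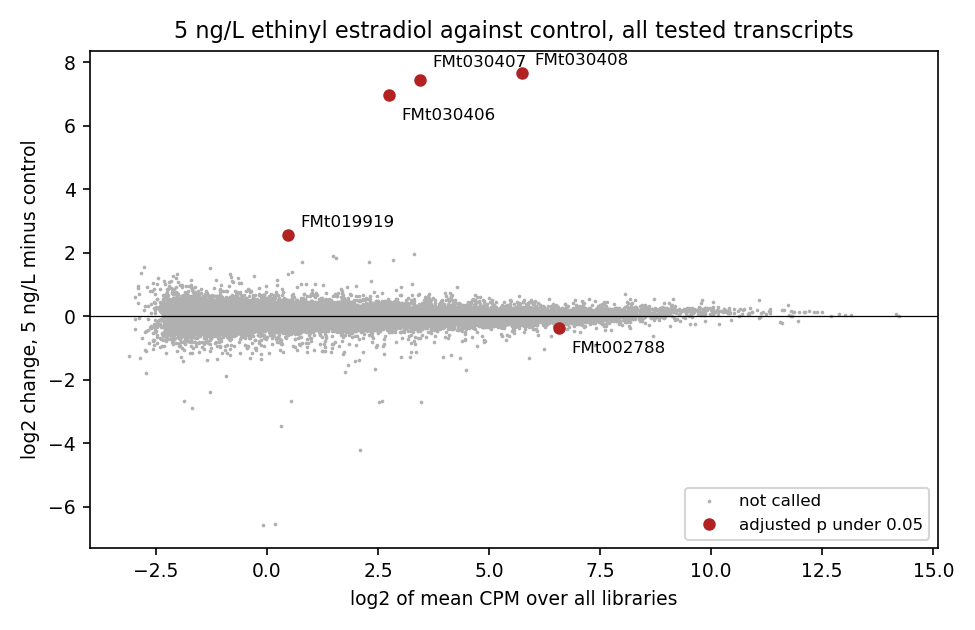
Each point is 1 of the 35340 tested transcripts: the horizontal axis is log2 of its mean CPM over all libraries, and the vertical axis is its fitted log2 change at 5 ng/L minus control. The 5 called transcripts are labelled in red: 3 of them lie at 6.98 to 7.64, FMt019919 at 2.54 and FMt002788 at -0.37.

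FMt030408 rose from a few counts per control larva to a level read by 754 counts or more in each exposed larva. Its lowest, median and highest values were 0.167, 0.42 and 1.00 CPM over the 29 controls and 34.1, 88.8 and 236 CPM over the 17 larvae at 5 ng/L. The groups lie far apart: the lowest larva at 5 ng/L, replicate 27, had more than any control. In counts, controls held 3 to 27 with a median of 10, and exposed larvae up to 4933 with a median of 1493. The means were 0.469 ± 0.213 CPM (SD, n = 29) and 94.2 ± 58.6 CPM (SD, n = 17), a fitted change of 7.64 ± 0.27 (SE, log2) or 200-fold, with an adjusted p of 3.18e-53 in edgeR.

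FMt030407 and FMt030406, whose identifiers precede it, moved with it. FMt030407 ran over 0, 0.0971 and 0.338 CPM in controls (lowest, median, highest) and over 4.22, 15.4 and 47.1 CPM at 5 ng/L. Its fitted change was 7.45 ± 0.32 (SE, log2), or 175-fold, and 7 of the 29 controls held no count of it. FMt030406 ran over 0, 0.0773 and 0.388 CPM in controls and over 4.17, 10.8 and 25.6 CPM at 5 ng/L. All 17 exposed larvae lay above every control for both transcripts. The change of FMt030406 was 6.98 ± 0.33 (SE, log2), or 126-fold, with 9 of 29 controls at 0 counts. Controls held at most 9 counts of either transcript, so the size of both fold changes rests on few control reads. The sources used here do not state how reads common to similar transcripts were assigned, so the 3 values may not be separate measurements. The summed mean level of the 3 went from 0.662 to 125 CPM.

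FMt019919, with an identifier far from the others, rose less and from a low level. It ran over 0.0829, 0.365 and 0.851 CPM in controls and over 1.19, 2.14 and 3.14 CPM at 5 ng/L, with 2 to 22 counts per control and 18 to 97 per exposed larva. These groups do not overlap either, but the gap between the highest control and the lowest exposed larva is narrow beside those of the other 3 transcripts. The means were 0.359 ± 0.191 CPM (SD, n = 29) and 2.16 ± 0.658 CPM (SD, n = 17), and the fitted change was 2.54 ± 0.16 (SE, log2), or 5.82-fold, with an adjusted p of 9.15e-28 in edgeR.

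Complete separation of the groups was found for those 4 transcripts and no other: 0.0113% of the tested transcripts had every exposed larva above every control, and 0 had every exposed larva below. By the number of exposed larvae outside the range of the controls, the next transcript was FMt025503, named after its values were seen. For it 9 of 17 exposed larvae lay below the lowest control, and 2 of 29 controls lay above the highest exposed larva. It averaged 3.35 ± 0.893 CPM in controls and 2.72 ± 1.02 CPM at 5 ng/L, and its difference of -0.31 ± 0.15 (SE, log2) was not called (edgeR adjusted p = 0.78).

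**Figure D2:**
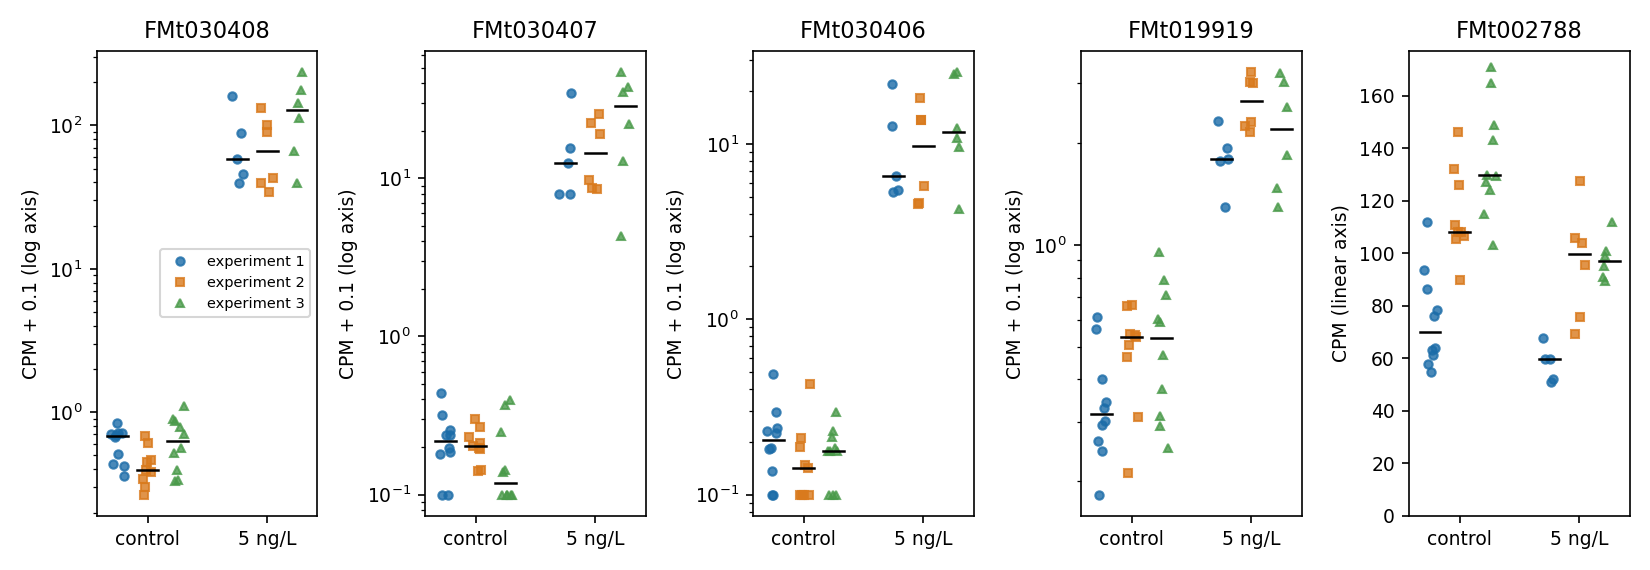
Each point is 1 larva, coloured by experiment, for the 5 called transcripts; bars mark the median of each experiment. The first 4 panels have log axes of CPM + 0.1 and show all 17 larvae at 5 ng/L above all 29 controls, while the last, on a linear axis from 0, shows overlapping groups for FMt002788, with lower levels in experiment 1 in both groups.

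FMt002788 fell by a modest amount on top of larger differences between experiments. It ran over 54.7, 108 and 171 CPM in controls and over 50.9, 90.8 and 127 CPM at 5 ng/L, so the groups overlap widely. Over all experiments 2 of 17 exposed larvae lay below the lowest control, and 8 of 29 controls lay above the highest exposed larva. Within experiments the means went from 74.7 ± 18.2 to 57.97 ± 6.73 CPM (SD, n = 10 and 5), from 115 ± 16.97 to 96.2 ± 21.4 CPM (n = 9 and 6) and from 136 ± 21.4 to 97.8 ± 8.20 CPM (n = 10 and 6). The fitted change was -0.37 ± 0.08 (SE, log2), which is 0.774 times the control level, with an adjusted p of 0.0428 in edgeR. In the same fit FMt002788 was also called lower than control at 10 ng/L (-0.39 ± 0.07, edgeR adjusted p = 0.00016). At 0.12, 1.2 and 2.5 ng/L it differed by -0.12 ± 0.08, -0.26 ± 0.07 and -0.21 ± 0.08 and was not called. All of these differences share the control larvae, so they are not independent of each other.

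The call of FMt002788 at 5 ng/L depended on the libraries and settings used. Of 19 alternative settings or sets of libraries, 12 kept it and 7 lost it, among the latter a stricter threshold of 0.01. With each of the 46 libraries left out in turn it was kept in 24 cases and lost in 22. Of the latter, 12 were controls and 10 larvae at 5 ng/L. Its edgeR adjusted p ran from 0.00859 without replicate 28 at 5 ng/L to 0.155 without replicate 37 at 5 ng/L. These fits kept the filter, the scaling factors and the dispersions (the model's spread estimates) of all libraries. They are therefore not full repeats of the main fit. The log2 change itself moved little, from -0.40 to -0.34. It was also lost when an experiment was left out, with edgeR adjusted p-values of 0.142, 0.0554 and 1.00 without experiments 1, 2 and 3, and when only the 46 libraries were fitted (0.095), all low-count transcripts were kept (0.0515) or the model had no term for experiment (0.854). An exact two-sided permutation test within experiments gave unadjusted p = 0.0549 in experiment 1 (n = 10 and 5), 0.0697 in experiment 2 (n = 9 and 6) and 0.000999 in experiment 3 (n = 10 and 6). FMt002788 was chosen by its difference in these same larvae, so these p-values are no further support for it. The 4 rises kept their calls in all 46 cases.

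The only called transcripts within 3 identifier numbers of another called one were the 3 consecutive ones. A further 17 listed transcripts lie within that distance of a called one, and 16 of them were abundant enough to test. Called transcripts were taken out of this list, so the absence of calls in it is no result. FMt030405, next below the 3 consecutive transcripts, had 60.5 ± 9.35 CPM (SD, n = 29) in controls and 59.1 ± 9.60 CPM (n = 17) at 5 ng/L, a difference of -0.04 ± 0.08 (SE, log2). FMt030409, next above, had 31.9 ± 4.85 and 31.8 ± 3.50 CPM, a difference of -0.01 ± 0.06. The smallest unadjusted p among the 16 was that of FMt002786, with 14.8 ± 4.25 and 11.2 ± 4.34 CPM, a difference of -0.44 ± 0.13 and an edgeR adjusted p of 0.692. FMt002787 was filtered out, with 58 counts over all controls and 48 over all larvae at 5 ng/L.

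The 3 experiments gave the same 4 rises. Fitted within experiments on the 46 libraries, edgeR called 4, 4 and 5 of 33186 transcripts in experiments 1, 2 and 3 (0.0121, 0.0121 and 0.0151%), and all of these calls were higher at 5 ng/L. FMt030408 changed by 7.26 ± 0.38, 7.73 ± 0.41 and 7.86 ± 0.37 (SE, log2), and FMt019919 by 2.73 ± 0.32, 2.69 ± 0.31 and 2.27 ± 0.29. For each of the 4 transcripts the exact two-sided permutation p within an experiment was the smallest that the arrangements allow, namely 0.000333, 0.0002 and 0.000125. Complete separation of the groups fixes this outcome, so these p-values add no support beyond it. A test of the difference of the effect between experiments called 0 of 33186 transcripts in edgeR (0%), where 2161 (6.51%) had an unadjusted p under 0.05 and the smallest adjusted p was 0.356; limma-voom also called 0, with 1842 under 0.05.

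Which further transcript was called depended on how the experiments were fitted. With the 46 libraries in 1 model it was FMt021674 in experiment 3, which had 15.2 ± 3.61 CPM (SD, n = 10) in controls and 27.8 ± 8.73 CPM (n = 6) at 5 ng/L there, a change of 0.87 ± 0.17 (SE, log2) with an edgeR adjusted p of 0.0382. Its difference was -0.21 ± 0.18 in experiment 1 and 0.00 ± 0.18 in experiment 2, and it was not called over the 3 experiments together (0.29 ± 0.14, adjusted p = 0.786). With the libraries of each experiment fitted alone, edgeR called 5, 5 and 4 transcripts in experiments 1, 2 and 3 (0.0151, 0.0152 and 0.0121%). These were the 4 rises in each, FMt022767 in experiment 1 and FMt010161 in experiment 2, while FMt021674 had an adjusted p of 0.216. FMt022767 had 9.12 ± 1.49 CPM (SD, n = 10) in controls and 18.5 ± 3.996 CPM (n = 5) at 5 ng/L in experiment 1, a change of 1.02 ± 0.14 (SE, log2; edgeR adjusted p = 0.00997). FMt010161 had 1.35 ± 0.441 CPM (n = 9) and 5.87 ± 3.35 CPM (n = 6) in experiment 2, a change of 2.12 ± 0.29 (edgeR adjusted p = 0.00547). Neither was called in its experiment with the 46 libraries in 1 model (0.951 and 0.228) nor over the 3 experiments together (0.792 and 0.767). An unadjusted p under 0.05 was found for 3.61% of transcripts in experiment 1, 5.18% in experiment 2 and 15.9% in experiment 3, and for 3.28, 5.86 and 13.7% with each experiment fitted alone. Along with this, the first principal component of the larvae differed most there: its median was -33.8 at 5 ng/L and 23.6 in controls in experiment 3, against 13.6 and 14.3 in experiment 1 and 6.93 and 11.9 in experiment 2. The part of this component in the small differences was not tested within experiment 3.

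Larvae at 5 ng/L differed widely among themselves in how far the consecutive transcripts had risen. The highest larva had 6.92 times the FMt030408 level of the lowest, 11.2 times that of FMt030407 and 6.15 times that of FMt030406, while FMt019919 spanned 2.64-fold. In experiment 1 the 5 larvae had 45.8, 58.2, 160, 39.6 and 88.8 CPM of FMt030408, and 7.83, 12.4, 34.4, 7.89 and 15.4 CPM of FMt030407 in the same order. The larvae therefore held nearly the same ranking for both transcripts. The highest and the lowest values of FMt030408 over all experiments were those of replicate 53 in experiment 3, at 236 CPM, and replicate 27 in experiment 2, at 34.1 CPM.

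The 3 consecutive transcripts varied together from larva to larva, and no such relation was detected for FMt019919. How reads common to similar transcripts were assigned is not stated, so the 3 values may not be separate measurements. Whether shared reads made them vary together was not tested. FMt019919 also rests on fewer counts, 18 to 97 per exposed larva against 754 to 4933 of FMt030408. Among the 17 larvae, with levels centred within experiments, FMt030408 and FMt030407 correlated with r = 0.969 and rho = 0.944, and FMt030408 and FMt030406 with r = 0.942 and rho = 0.924. FMt030407 and FMt030406 correlated with r = 0.905 and rho = 0.922. Each of these had a permutation p of 1e-05, the smallest that 100000 permutations can give, and an adjusted p of 0.000133 over the 40 relations computed. Without the larvae farthest from the median, replicates 63 and 7, the 3 values of r were 0.978, 0.90 and 0.852, and within experiments they ran from 0.871 to 0.993. FMt030408 and FMt019919 had r = -0.24 and rho = -0.21 (permutation p = 0.426, adjusted 0.888), with r = 0.21, 0.39 and -0.68 within experiments 1, 2 and 3. Without the 2 larvae farthest from the median this r was -0.18. In the 29 controls, where counts of the 3 transcripts are near 0, r was -0.29 for FMt030408 and FMt030407 (permutation p = 0.167, adjusted 0.557).

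**Figure D3:**
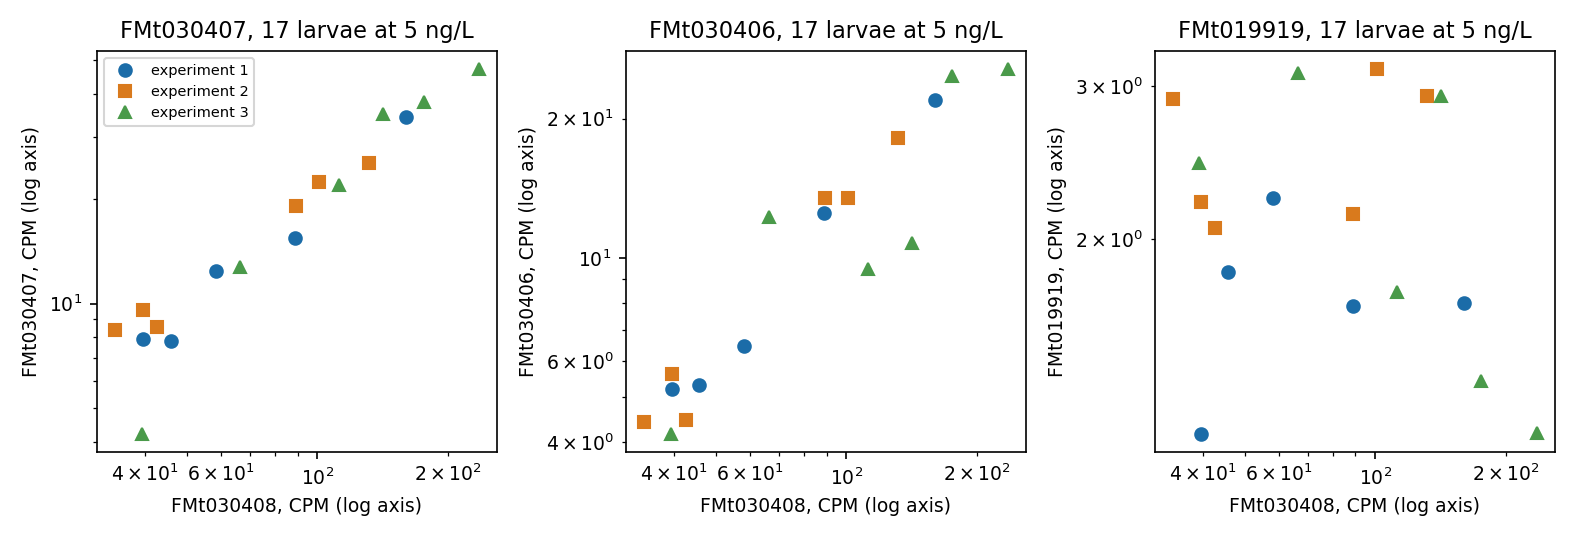
Each point is 1 of the 17 larvae at 5 ng/L, coloured by experiment, with CPM of FMt030408 on the horizontal axis and CPM of FMt030407, FMt030406 or FMt019919 on the vertical axis, all log axes. The first 2 panels show points along a line from low to high (r = 0.969 and 0.942 after centring within experiments), and the third shows no such line (r = -0.24).

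All transcripts were searched for the same variation. With log2 CPM of FMt030408 as a covariate in edgeR, 2 of 28957 transcripts were called among the 17 larvae (0.00691%), and they were FMt030407, with a slope of 1.10 ± 0.08 (SE, log2 per log2; adjusted p = 1.3e-06), and FMt030406, with 1.00 ± 0.10 (adjusted p = 8.51e-05). The third smallest adjusted p was 0.947. Both calls were kept without replicates 53 and 27, at slopes of 1.15 and 1.02. Counts of FMt030407 made up 20.3 ± 3.31% (SD, n = 17) of those of FMt030408 in the same larva, and counts of FMt030406 12.6 ± 2.61%, not adjusted for transcript length. At 10 ng/L these shares were 20.8 ± 2.21% and 12.8 ± 2.36% (n = 28), and at 2.5 ng/L 17.2 ± 4.68% and 9.96 ± 3.62% (n = 18). As reads may be shared among the consecutive transcripts, these calls and shares cannot show that separate transcripts varied together.

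The larvae at 5 ng/L were also set against those at the neighbouring concentrations. Against 2.5 ng/L, edgeR called 3 of 35340 transcripts, all higher at 5 ng/L (0.00849%, where 6.35% had an unadjusted p under 0.05): FMt030406 by 1.97 ± 0.29, FMt030407 by 1.81 ± 0.27 and FMt030408 by 1.61 ± 0.25 (SE, log2). FMt030408 ran over 10.4, 28.8 and 77.9 CPM at 2.5 ng/L (lowest, median, highest, n = 18), so the upper larvae of that group reach into the range of 5 ng/L. The highest value, from 564 counts, is that of replicate 7, a library left out in 1 of the alternatives. Other larvae at 2.5 ng/L lie in that range too. Among them are replicates 3, 12, 28, 58 and 53, with 46.8, 41.7, 40.5, 38.1 and 35.1 CPM. FMt019919 ran over 0.79, 1.09 and 2.09 CPM at 2.5 ng/L, and its difference of 0.79 ± 0.18 was not called by edgeR (adjusted p = 0.122) but was called by limma-voom (0.80, adjusted p = 0.0181). Without experiment 3 the difference of FMt030408 was 1.33 and was not called (edgeR adjusted p = 0.247).

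Against 10 ng/L, edgeR called 1 of 35340 transcripts, lower at 5 ng/L (0.00283%, where 3.19% had an unadjusted p under 0.05), which was FMt036339 by -2.25 ± 0.30 (SE, log2; adjusted p = 3.06e-07). It ran over 0.966, 1.88 and 3.08 CPM in controls, over 1.67, 2.23 and 3.47 CPM at 5 ng/L and over 1.73, 4.28 and 79.2 CPM at 10 ng/L. Larvae at 5 ng/L thus overlapped with controls for this transcript, and its difference of 0.27 ± 0.28 from control was not called (adjusted p = 0.848), while larvae at 10 ng/L spread over a far wider range. The fit behind this SE also held the larvae at 10 ng/L. Within experiments 1, 2 and 3, on the 46 libraries, the differences from control were 0.22 ± 0.19, 0.27 ± 0.18 and 0.43 ± 0.18 (SE, log2). These were not called either (edgeR adjusted p of 0.246 or more). The 4 transcripts that rose at 5 ng/L differed there from 10 ng/L by -0.88 ± 0.23 (FMt030408), -0.87 ± 0.24 (FMt030407), -0.90 ± 0.26 (FMt030406) and -0.65 ± 0.16 (FMt019919; SE, log2). None of these 4 differences was called by edgeR, with adjusted p-values of 0.406 or more, whereas limma-voom called all 4, at -1.03, -1.08, -1.06 and -0.63, with adjusted p-values of 0.0124 to 0.0487. The call of FMt036339 was lost without experiment 2, at -1.69 with an edgeR adjusted p of 0.191, and with the title number as a block, at -1.47 with 0.0718.

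On log2 of the concentration, 5 ng/L lies midway between 2.5 and 10 ng/L, and the level there was compared with the mean of both neighbours. For this contrast edgeR called 0 of 35340 transcripts (0%), 875 (2.48%) had an unadjusted p under 0.05, and limma-voom also called 0. FMt030408 lay above the midpoint by 0.37 ± 0.20 (SE, log2; unadjusted p = 0.07), FMt030407 by 0.47 ± 0.22 (p = 0.0309) and FMt030406 by 0.53 ± 0.23 (p = 0.021), and FMt019919 by 0.07 ± 0.15. FMt036339 lay below it by -1.10 ± 0.27 (unadjusted p = 9.04e-05). All of these have adjusted p-values close to 1.

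**Figure D4:**
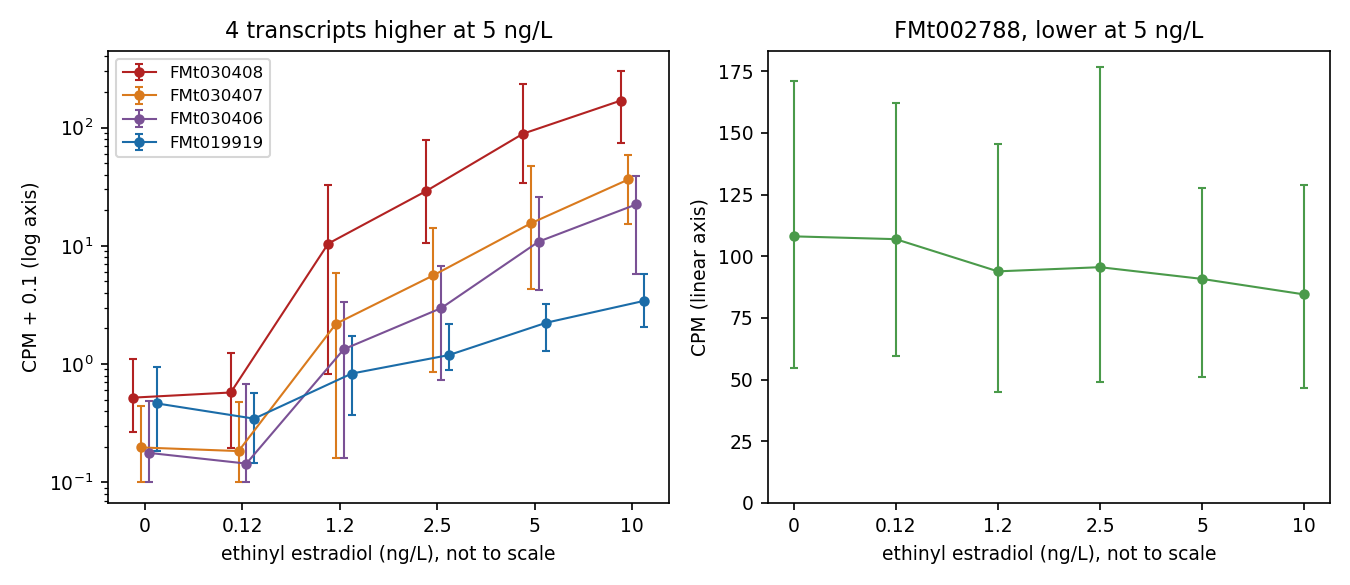
Points are group medians and bars run from the lowest to the highest larva at each concentration (n = 29, 17, 30, 18, 17 and 28 from left to right), spaced evenly and not to scale. On the left, on a log axis of CPM + 0.1, the 4 transcripts higher at 5 ng/L lie between their levels at 2.5 and 10 ng/L; on the right, on a linear axis from 0, FMt002788 has overlapping ranges at all concentrations.

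Beyond the 5 calls, no difference from control passed the threshold in edgeR. An unadjusted p under 0.05 was found for 2242 of 35340 transcripts (6.34%), 1166 of them higher and 1076 lower at 5 ng/L. DESeq2 called 11 transcripts, 5 higher and 6 lower, and had 2470 with an unadjusted p under 0.05; the 5 calls of edgeR were among the 11. In edgeR the share with an unadjusted p under 0.05 grew with the level, from 4.66% of transcripts under 0.3 CPM to 12.1% of those at 100 CPM or more. Among the 2237 with an unadjusted p under 0.05 that were not called, the median absolute difference was 0.28 on the log2 scale, which describes transcripts selected by that p and is no further test.

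Of the 10 transcripts closest to the threshold with at least 1 CPM and 1 direction in all 3 experiments, 8 were lower and 2 higher at 5 ng/L. FMt045695 ran over 3.49, 7.37 and 14.6 CPM in controls and over 1.71, 4.50 and 8.55 CPM at 5 ng/L, with overlapping groups in which 9 of 29 controls lay above every exposed larva. Its difference was -0.73 ± 0.16 (SE, log2; edgeR adjusted p = 0.0655). It was called with RLE scaling, without replicate 7 at 2.5 ng/L, in a fit of the 46 libraries alone, by DESeq2 and with the first principal component as a covariate (adjusted p from 0.00109 to 0.0487). A looser threshold of 0.1 also called it. Under 13 of the 19 alternatives FMt045695 was not called. FMt008590 ran over 3.92, 5.05 and 8.11 CPM in controls and over 4.92, 7.03 and 9.81 CPM at 5 ng/L, a difference of 0.41 ± 0.10 (adjusted p = 0.16), with 4 of 17 larvae above the highest control.

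FMt005912, the other higher one, had 3.04 ± 1.45 CPM (SD, n = 29) and 6.46 ± 6.30 CPM (n = 17), a difference of 1.10 ± 0.28 (edgeR adjusted p = 0.31). Its highest exposed larva, replicate 28, held 27.3 CPM, where the group's median was 4.38 CPM. FMt044491 is described below. The remaining 6, FMt020540, FMt041475, FMt036759, FMt008652, FMt044593 and FMt036848, were lower by differences of -0.32 to -0.22 (edgeR adjusted p from 0.16 to 0.306). FMt041475 was called by DESeq2, with the first principal component as a covariate and with the title number as a block (-0.39 to -0.33, adjusted p from 0.00939 to 0.0409), and FMt008652 without experiment 1 (-0.37, adjusted p = 0.00673). Under 16 and 18 of the 19 alternatives, respectively, FMt041475 and FMt008652 were not called.

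**Figure D5:**
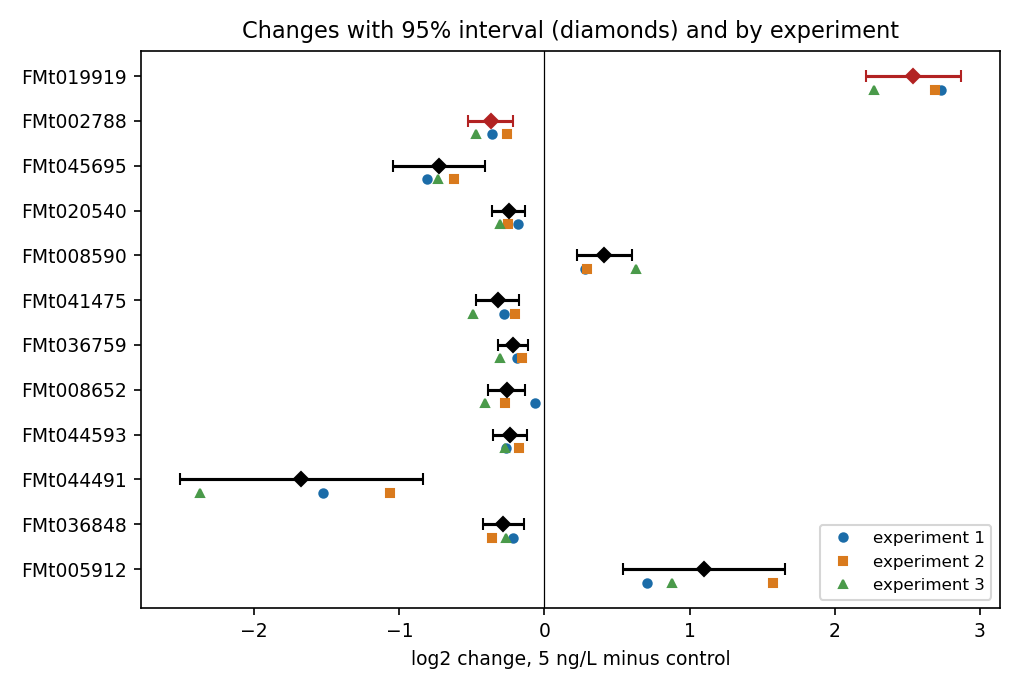
Diamonds with bars are the fitted log2 changes at 5 ng/L minus control with 95% intervals, and the smaller marks are the changes within each experiment. The 2 called transcripts FMt019919 and FMt002788 are in red and the 10 transcripts closest to the threshold in black; FMt044491 has the widest interval, from -2.51 to -0.84.

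A further group of differences came from transcripts that were high in a few control larvae. FMt044491, among the 10 closest to the threshold, had medians of 11.9 CPM in controls and 11.5 CPM at 5 ng/L, but 7 of 29 controls held 77.1 to 188 CPM and no exposed larva exceeded 18.7 CPM. Its difference was -1.67 ± 0.42 (SE, log2; edgeR adjusted p = 0.306). The 3 largest fitted differences below 0 among transcripts with a mean of at least 1 CPM over all libraries were of the same form. FMt045757 (-6.53 ± 1.82) held 8.005 to 9.51 CPM in 3 controls and 0 counts in 20 of 29 controls and 15 of 17 exposed larvae. FMt028371 (-4.22 ± 1.24) held 22.3 to 43.8 CPM in 3 controls and at most 0.514 CPM in the others. FMt016494 (-3.44 ± 1.10) held 11.5 to 16.1 CPM in 6 controls and 8.74 CPM in 1 larva at 5 ng/L. High values also occurred at the neighbouring concentrations. At 2.5 and 10 ng/L the highest larvae held 129 and 146 CPM of FMt044491, 7.11 and 10.8 CPM of FMt045757, 34.8 and 38.8 CPM of FMt028371, and 11.02 and 15.6 CPM of FMt016494. None of the last 3 was called at 5 ng/L by edgeR (adjusted p from 0.538 to 0.696), while DESeq2 called FMt045757, FMt028371 and FMt044491 (adjusted p from 0.0092 to 0.0219).

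The 95% intervals show how closely the change of each single transcript was estimated. They hold for 1 transcript at a time and not for all of them jointly. Vessels that larvae may have shared are not in the model. The 95% interval of the change lay within 2-fold in either direction for 33294 of 35340 transcripts (94.2%) and within 1.5-fold for 26370 (74.6%). Precision differed with the level: the median SE was 0.34 (log2) under 0.3 CPM, 0.08 between 30 and 100 CPM and 0.09 at 100 CPM or more. The share with an interval within 2-fold was 57.4% in the lowest of these ranges, 99.2% in the middle one and 99.3% in the highest. The share within 1.5-fold was 2.37, 95.9 and 92.7%.

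The spread between larvae was compared as well as the level. The mean absolute deviation of log2 CPM from a larva's own group and experiment differed for 1 of 33186 transcripts (0.00301%) in limma, FMt011529, which varied less at 5 ng/L. Among controls, 10 of 29 larvae held 38.2 to 78.3 CPM and the others at most 6.08 CPM, and all 10 came from experiments 1 and 2. All 17 larvae at 5 ng/L lay between 3.16 and 7.18 CPM. The deviation was 1.2495 in controls and 0.21 at 5 ng/L, a difference of -1.02 ± 0.15 (SE, log2; limma adjusted p = 0.00096), while the level itself was not called (-1.22 ± 0.43, edgeR adjusted p = 0.751). Larvae at 2.5 and 10 ng/L reached 46.7 and 85.3 CPM. In experiment 3 the SD of FMt011529 was 1.05 CPM in controls (n = 10) and 0.917 CPM at 5 ng/L (n = 6). On simulated data the spread test made more false calls than its threshold states, which limits this single call. An unadjusted p under 0.05 for the spread was found for 2454 transcripts (7.39%), 1560 with more and 894 with less spread at 5 ng/L. FMt030408 was among those with more, at 0.78 against 0.45 in controls (unadjusted p = 0.0017, adjusted 0.411), where control values rest on 3 to 27 counts. The prior count of 2 in the log2 CPM draws such low values together, which narrows the spread of the controls. In CPM the highest larva had 6.01 times the lowest in controls and 6.92 times at 5 ng/L.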

How the data were processed

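RNA came from whole larvae, each frozen on its own, and 250 ng went into each SENSE mRNA-Seq V2 library, per the labels' protocols. The values deposited by the authors are raw read counts, 1 whole number for each transcript in each library, from reads aligned to the species' known transcripts, as the series' design text states. The submitters' processing notes name bcl2fastq 2.19.1, limma 3.40.6 and edgeR 3.26.8. The aligner, the counting tool and its use of strand were not given in the sources used here. The table holds 37085 identified transcripts, the least abundant with 117 counts in all, so a filter came before. A row without an identifier, with 1.64e-05% of all counts, was left out, and 0 columns were left unmapped.

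Concentration comes from the labels. Experiment follows the number in the title, with 2 to 23 in experiment 1, 27 to 48 in experiment 2 and 52 to 73 in experiment 3. In R 4.3.3 with edgeR 4.0.16, 35340 transcripts passed filterByExpr over the 6 groups, with 10 as the minimum count and 15 as the minimum total. After TMM scaling, 1 robust quasi-likelihood model with terms for group and experiment was fitted to every library of the series. A call is an adjusted p (Benjamini-Hochberg) under 0.05, and SEs are the change over the square root of its F statistic. Within-experiment, interaction and spread tests used the 46 libraries of both groups (33186 transcripts). The spread test used limma 3.58.1 on absolute deviations of log2 CPM (prior count 2), and correlations used log2(CPM + 0.1). Among the 46 libraries, none was a copy of another from the same group and experiment. For the 166 such pairs, the chi-square of counts was 8.39 to 94.0 times its degrees of freedom. Pairs across groups or experiments are not among these 166. The tests were checked on simulated data, on which the spread test made more false calls than its threshold states.

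Named transcripts are all those called, listed neighbours within 3 identifier numbers, the 10 closest to the threshold with 1 direction in all experiments, the 3 largest differences each way (both with 1 CPM or more on average), and those called in other comparisons; others are marked. The members, lists and tests were chosen with earlier results of these data known. Alternatives were DESeq2 1.42.0, limma-voom, RLE scaling, other filters on low counts, no experiment term, other sets of libraries, other thresholds and the title number as a block. Added after seeing the data were leaving out each of the 46 libraries, the first principal component as a covariate, and the square root of the deviation. Fits without 1 of the 46 libraries kept the filter, scaling factors and dispersions of all libraries.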

Additional observations from a re-analysis of the deposited data

Results flagged for a closer look

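In 54 sets of 5 to 10 larvae of 1 group and experiment, the highest or lowest value was compared with the range of its set. The rule flags about 1 set in 20 by chance if values are normal and sets independent. Counts near 0 and libraries shared between sets depart from this, so the rate is nominal only. Values that stood apart were found in 7 sets. At 5 ng/L in experiment 1 these were FMt030407 at 34.4 CPM in replicate 7, where the next highest larva had 15.4 CPM, and the first principal component at -74.0 in replicate 8, where the next was 11.3. In controls they were FMt030406 at 0.388 CPM in replicate 8 of experiment 1 and at 0.324 CPM in replicate 42 of experiment 2, a total of 11651986 counts in replicate 12 of experiment 1, a scaling factor of 0.913 in replicate 28 of experiment 2, and the first principal component at -63.8 in replicate 57 of experiment 3. Without any one of these libraries the 4 rises were still called.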

How the results depend on the processing

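The rises of FMt030408, FMt030407, FMt030406 and FMt019919 at 5 ng/L kept their direction and their side of the threshold under all 19 alternatives and without each of the 46 libraries. The number of transcripts called against control was 5, and it lay between 4 and 7 under 17 of the 19 alternatives, at 11 with DESeq2 and at 8 with the first principal component as a covariate; without each of the 46 libraries it was 4 to 6. Against 10 ng/L the count of 1 went to 5 without the low-count filter and with limma-voom. Against 2.5 ng/L it was 3 or 4, and against the midpoint 0, under all 13 alternatives of each. The cause of these shifts was not tested. RLE scaling moved the median change of all transcripts from 0.01 to 0.00 (log2).

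With the title number as a block, 7 transcripts were called against control and 0 against 10 ng/L, and in the 46 libraries alone 5. Whether larvae with the same number in both groups varied together was described but not tested. Over 17 pairs the correlation of their deviations ran from -0.19 to 0.28, with a median of 0.055. In 5 pairs it was over 0.1, and 3 larvae matched their own number best. In limma-voom the correlation within runs of 5 title numbers was -0.03 and 5 transcripts were called.

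The differences of 2 uncalled neighbours changed sign around 0. FMt030409 had 0.013 without experiment 1, 0.0011 without experiment 2 and -0.021 to 0.020 without single libraries, and FMt030405 0.023 without experiment 3 and 0.0040 with the principal component. Control values of the consecutive transcripts rest on 0 to 27 counts, which limits the precision of their fold changes, and larvae that shared a vessel are not known.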
